A study of Mus musculus with 4 samples.

Results

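The ATP-binding cassette (ABC) transporters were followed in mouse small intestine as every gene whose name on the array is Abc, a letter from a to g and a number. There were 50 such genes among 37074 gene names, read by 111 of the 56605 probes that are not controls. They fall into subfamily A with 16 genes, B with 10, C with 10, D with 4, E with 1, F with 3 and G with 6. Transporters of the same fold that carry other symbols, such as Tap1, Tap2 and Cftr, are outside this name rule and are described beside it.

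The tissue was epithelium scraped mechanically from ileum and jejunum, and the array was a 1-colour (Cy3) Agilent mouse array that reads mRNA with 60-base probes. The 4 groups were ileum of Tcrbd-/-, DAOG181R/G181R mice, ileum of Tcrbd-/-, DAOwt/wt mice, jejunum of Tcrbd-/-, DAOG181R/G181R mice and jejunum of Tcrbd-/-, DAOwt/wt mice. All mice were 9 weeks old, on a C57BL/6J background, and the wild-type DAO groups too were without the loci of the T cell receptor beta and delta chains. Each group was 1 array of RNA mixed from 5 mice, so no value has an error between animals and no p-value could be computed, and the labels do not say whether the ileum and jejunum pools came from the same mice. DAO is D-amino acid oxidase, an enzyme that oxidises D-amino acids, and G181R is an allele known to lose most of that activity. The groups are called G181R and wild-type below.

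ABC proteins couple ATP hydrolysis to the movement of a substrate across a membrane, apart from subfamilies E and F, which have no transmembrane domain and act on ribosomes and translation. In the intestine, Abcb1a, Abcb1b, Abcc2 and Abcg2 sit in the apical membrane of enterocytes and return drugs, toxins and conjugates to the lumen, and the Abcg5 and Abcg8 pair returns plant sterols and cholesterol. Other members load lipoproteins with lipid, serve mitochondria or peroxisomes, or act as subunits of a potassium channel.

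Sequences are shown for the genes with the largest genotype differences, since 3 of them, Abcb1a, Abcb1b and Abcb4, are related neighbours on chromosome 5 whose probes could in principle read each other. The brightest probes of these 3 genes lie within 211093 bases (mm9, the build in the files). The probes of Abcb1a and Abcb1b share no run longer than 7 bases, and so do those of Abcb1b and Abcb4, while those of Abcb1a and Abcb4 share at most 5. Over the 6003 pairs of probes of different ABC genes the longest shared run was 12 bases, and the best ungapped alignment matched 36 of 60 bases. These runs compare probe with probe. No probe was compared with the transcript of another gene, so whether a probe reads a related transcript was not tested. Below are 30 bases of each probe on the plus strand of mm9, with the shared run in capitals, first for Abcb1a with Abcb1b and then for Abcb1b with Abcb4.
Abcb1a probe, chr5:8748100-8748129: gatccctaccacCTAAGTAagcagcaaggt
Abcb1b probe, chr5:8865955-8865984: tgactatctgaggtgCTAAGTAtttttaat
Abcb1b probe, chr5:8865925-8865954: TCCAGGCtggagcaaagcgctcatgagctg
Abcb4 probe, chr5:8959138-8959167: caatggtcaacaTCCAGGCcggcacacaga

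The promoter windows of the neighbouring genes differ from each other in base composition and in the short motifs they hold. Each window runs from 250 bases before to 50 bases after the gene start, taken from RefSeq on GRCm38, and motif letters on either strand are in capitals. The motifs searched were GGGCGG (a GC box, in 35.7% of all 32851 windows), CCAAT (37.4%), TATAAA (13.6%), AGGTCA (a nuclear receptor half-site, 16.3%), CACGTG (an E-box, 7.15%), TTCNNNGAA (a STAT site, 8.30%), TTATGTAA (a D-box, 0.938%) and CAAAGTCCA (an HNF4 core, 0.475%). The DR4 and ER6 repeats, longer receptor sites that contain AGGTCA, were in 0.0152% and 0% of all windows and in 0 windows of ABC genes. The Abcb1a window is 40.3% G or C and holds none of the motifs. The Abcb1b window is 55% G or C, with GGGCGG and with CCAAT on both strands, and the Abcb4 window is 64% G or C, with GGGCGG and CCAAT. The Abcc2 window, on chromosome 19, is 45% G or C and holds AGGTCA and CCAAT. Abcg8 starts close to Abcg5 on the opposite strand, so their windows overlap, and this Abcg8 window holds CCAAT and TATAAA. A second Abcg8 start in the table has a window that does not overlap that of Abcg5, is 65% G or C and holds none of the motifs.
Abcb1a promoter, chr5:8566841-8567140, + strand: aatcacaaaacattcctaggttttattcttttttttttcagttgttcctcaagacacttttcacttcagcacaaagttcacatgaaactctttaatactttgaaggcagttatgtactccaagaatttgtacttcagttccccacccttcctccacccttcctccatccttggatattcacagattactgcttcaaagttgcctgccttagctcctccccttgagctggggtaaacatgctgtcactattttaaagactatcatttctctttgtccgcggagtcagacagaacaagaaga
Abcb1b promoter, chr5:8797897-8798196, + strand: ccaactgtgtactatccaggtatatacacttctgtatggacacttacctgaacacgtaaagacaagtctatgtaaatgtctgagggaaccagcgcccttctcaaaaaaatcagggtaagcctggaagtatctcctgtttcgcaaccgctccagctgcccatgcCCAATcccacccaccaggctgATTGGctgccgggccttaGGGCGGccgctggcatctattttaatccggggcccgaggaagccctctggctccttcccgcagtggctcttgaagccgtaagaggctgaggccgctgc
Abcb4 promoter, chr5:8893471-8893770, + strand: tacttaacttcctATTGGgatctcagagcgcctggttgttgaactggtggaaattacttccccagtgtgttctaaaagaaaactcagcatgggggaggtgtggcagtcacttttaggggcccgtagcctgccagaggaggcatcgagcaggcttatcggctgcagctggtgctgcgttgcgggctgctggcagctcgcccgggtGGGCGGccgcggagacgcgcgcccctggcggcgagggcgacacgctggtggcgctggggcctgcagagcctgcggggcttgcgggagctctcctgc
Abcc2 promoter, chr19:43782058-43782357, + strand: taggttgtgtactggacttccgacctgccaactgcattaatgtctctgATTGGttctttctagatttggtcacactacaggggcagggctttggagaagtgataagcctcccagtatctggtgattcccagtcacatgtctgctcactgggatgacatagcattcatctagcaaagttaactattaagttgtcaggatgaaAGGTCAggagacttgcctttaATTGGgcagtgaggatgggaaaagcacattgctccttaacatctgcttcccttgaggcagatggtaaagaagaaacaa
Abcg8 promoter, chr17:84682871-84683170, + strand: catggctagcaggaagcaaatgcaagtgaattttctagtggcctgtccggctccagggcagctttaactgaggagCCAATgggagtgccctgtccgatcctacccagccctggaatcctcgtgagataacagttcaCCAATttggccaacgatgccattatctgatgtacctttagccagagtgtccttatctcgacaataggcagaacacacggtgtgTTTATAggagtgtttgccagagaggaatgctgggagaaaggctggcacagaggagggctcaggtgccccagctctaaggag

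Over the 45 windows found for 38 ABC genes, GGGCGG was in 46.7%, CCAAT in 35.6%, AGGTCA in 15.6%, TATAAA in 15.6%, CACGTG in 13.3%, TTCNNNGAA in 4.44%, CAAAGTCCA in 2.22% and TTATGTAA in 0%. These shares describe letters in a window and not bound sites.

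Most ABC genes gave signal in both tissues, and the undetected ones were concentrated in subfamily A. A probe counted as detected where the scanner software marked it well above background, and each gene was read at the probe with the highest mean over the 4 arrays, called its brightest probe. By that mark 36 of the 50 genes were detected on all 4 arrays, 7 on some and 7 on none. In subfamily A, 5 genes were detected on all arrays, 7 on some (Abca4, Abca8a, Abca8b, Abca9, Abca13, Abca14 and Abca16) and 4 on none (Abca5, Abca6, Abca12 and Abca15). Outside it 3 genes were not detected, Abcb5, Abcc12 and Abcd2. The share of ABC genes detected was 78%, 80%, 78% and 76% on the arrays of G181R ileum, wild-type ileum, G181R jejunum and wild-type jejunum, beside 60.8%, 59.8%, 61.1% and 58.4% of all gene names.

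Between 57.4% and 60.4% of all probes were detected on an array, and 0 spots were saturated. The 75th percentile of signal, to which each array was scaled, was between 156.1 and 184.8. Error could be taken between spots of 1 hybridisation and from nothing else. Over 300 probes printed 10 times, the SD of a log2 difference between arrays was 0.0561 to 0.0582 (median over probes), but it was 0.364 to 0.571 for the 8 to 10 of them with a signal under 30. The T cell marker list, genes that other lymphocytes express too, was above background for 7 of 7 genes on every array. Its summed signal, in multiples of the 75th percentile, was 6.95 in G181R ileum and 10.04 in wild-type ileum, and 25.2 in G181R jejunum and 33.3 in wild-type jejunum.

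The first comparison asks which ABC genes differed with the DAO genotype in ileum. Of 38 genes measured on both ileum arrays, 7 were at least 2-fold lower in G181R mice (Abcb4, Abcc2, Abcb1a, Abcb1b, Abcc6, Abcc9 and Abcc5) and 1 was at least 2-fold higher (Abcb11), where 2-fold is the difference taken to count here. Among all 21477 measured genes the same rule called 3.21% lower and 2.01% higher. In all, 24 of the 38 ABC genes were below 0 on the log2 scale, and their median difference was -0.22, beside 0.03 for all measured genes. In addition Abca8b was detected in wild-type ileum alone, at least 3.66-fold above the G181R array, and such lower bounds of at least 2-fold were found for 13.4% of the 1756 genes detected on 1 ileum array only, with higher bounds for 7.86% of them and for 0 ABC genes. RNA from bulk tissue cannot tell fewer cells of a type from less RNA per cell.

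In jejunum 0 of 37 measured ABC genes were at least 2-fold different in either direction, and the differences ran from -0.99 (Abcg3) to 0.94 (Abca1). The background was 0.763% higher and 0.749% lower among 21225 genes. The median ABC difference was -0.13, beside -0.01 for all genes, and 26 of the 37 were below 0. At a threshold of 1.5-fold, 8 ABC genes were lower and 1 was higher in G181R jejunum (background 4.09% and 3.4%), and 12 were lower and 3 higher in G181R ileum (background 8.65% and 6.81%).

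The subfamilies did not differ alike. In ileum, 3 of 9 measured genes of subfamily B and 4 of 9 of subfamily C were at least 2-fold lower in G181R mice, and 1 gene of subfamily B was higher, while 0 genes of subfamilies A, D, E, F and G passed 2-fold. The subfamily medians of the ileum differences were -0.10 for A, -0.44 for B, -0.29 for C, 0.45 for the single E gene, 0.10 for F and -0.43 for G. In jejunum they were -0.18 for A, -0.18 for B, -0.16 for C, 0.58 for E, 0.28 for F and -0.33 for G. Subfamilies E and F were the ones with every measured gene above 0 in both tissues. In subfamily G all 6 genes were below 0 in jejunum, though Abcg2, at -0.01, was above 0 with some other scalings of the arrays.

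**Figure D1:**
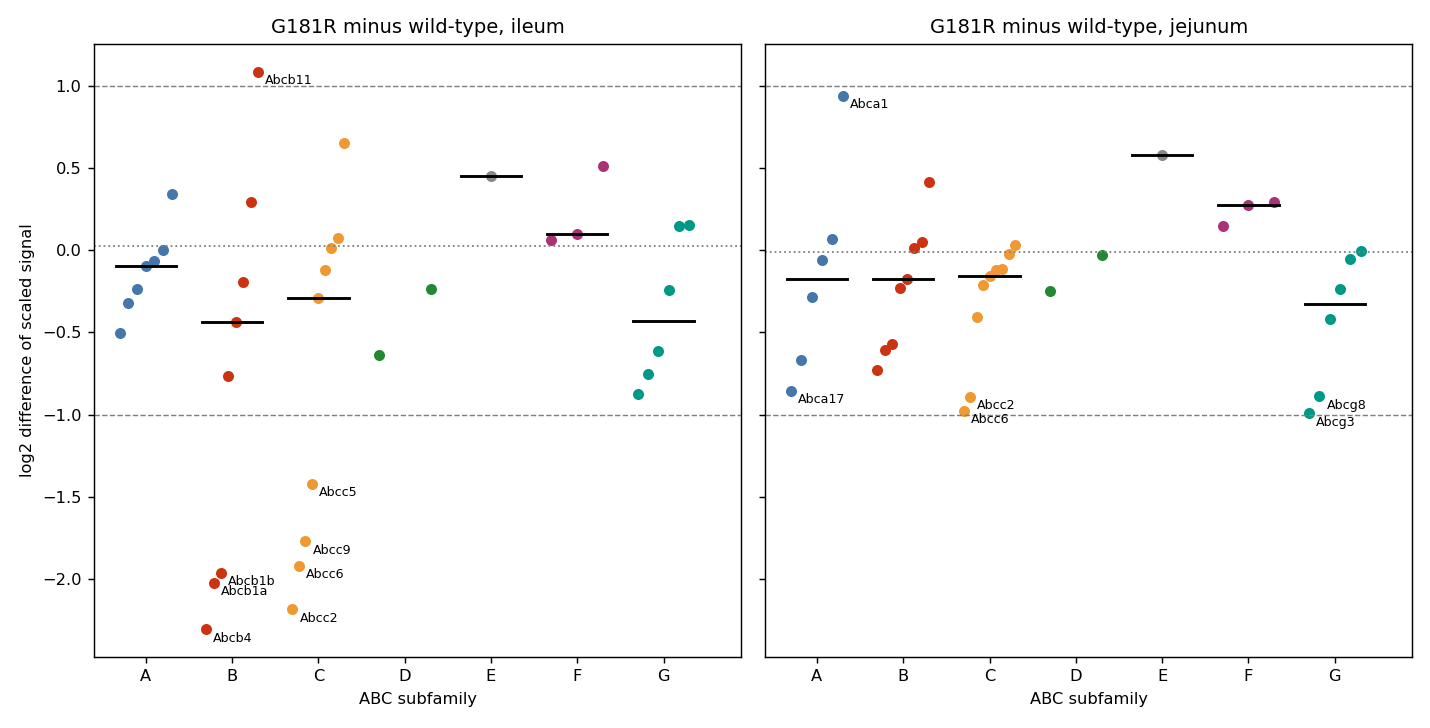
Each point is 1 ABC gene reported here that was measured on both arrays, placed by subfamily, with the log2 difference of scaled signal (G181R minus wild-type) on the vertical axis, for ileum in the left panel and jejunum in the right. Black bars are the medians of all measured genes of a subfamily, with none drawn for D, dashed lines mark 2-fold, and the dotted line is the median of all measured genes. In ileum 7 points of subfamilies B and C lie below the lower dashed line, from -1.42 (Abcc5) to -2.30 (Abcb4), and in jejunum no point lies past either line.

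The genes of drug and conjugate efflux, a group drawn up with earlier results known, held 5 of the 7 lower genes in ileum. Of 10 genes put in this role, 5 were at least 2-fold lower in G181R ileum and 0 higher, with a median of -0.83. In jejunum all 10 were below 0, with a median of -0.31 and 0 past 2-fold, but Abcg2 lay so near 0 that it was above it when arrays were scaled to their median or to the 75th percentile of the probes well above background on all arrays. Abcb1a, which encodes the main intestinal P-glycoprotein that pumps hydrophobic drugs back to the lumen, had a signal of 1413 in G181R ileum, against 6057 in wild-type ileum, and 1077 in G181R jejunum, against 1565 in wild-type jejunum. The wild-type ileum array stood far above the other 3, which lay close together. This was 4.06-fold lower in G181R ileum (log2 -2.02) and -0.57 in jejunum.

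Abcb1b, the second rodent P-glycoprotein gene, had signals of 293.8 in G181R ileum and 1208 in wild-type ileum, and 203.7 in G181R jejunum and 303.2 in wild-type jejunum. Again 1 array, wild-type ileum, stood apart, and G181R ileum was 3.90-fold lower (log2 -1.96; jejunum -0.61). The genotype difference in ileum minus that in jejunum was -1.45 for Abcb1a and -1.35 for Abcb1b.

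Abcc2, the apical pump for glutathione and glucuronide conjugates, showed another order of arrays. Its signals were 116.3 in G181R ileum and 557.5 in wild-type ileum, and 1319.7 in G181R jejunum and 2391 in wild-type jejunum. It was 4.54-fold lower in G181R ileum (log2 -2.18) and was at -0.89 in jejunum, so the lowest signal was that of G181R ileum and both ileum arrays lay below both jejunum arrays. Abcc6, a relative that drives ATP release from cells and is mutated in a calcification disease, had the same order of arrays, with 60.9 in G181R ileum and 242.9 in wild-type ileum, and 370.1 in G181R jejunum and 711.6 in wild-type jejunum. Abcc6 was 3.78-fold lower in G181R ileum (log2 -1.92) and its second probe gave -1.63. In jejunum it was at -0.98, just inside 2-fold.

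Abcc5, an exporter of cyclic nucleotides and other organic anions, was less settled. Its brightest probe had signals of 62.0 in G181R ileum and 175.1 in wild-type ileum, and 108.2 in G181R jejunum and 140.2 in wild-type jejunum, a 2.68-fold lower level in G181R ileum (log2 -1.42). Its 3 probes measured on both ileum arrays ranged from -1.42 to -0.12, and with another background correction (normexp) the brightest was at -0.94, below 2-fold. Its remaining probes, of 6 in all, were detected in wild-type ileum and not in G181R ileum. They were dim, with signals of 14.2 to 26.4 in wild-type ileum.

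The other efflux genes were within 2-fold in both tissues. Abcg2, the breast cancer resistance protein that exports urate and many drugs, had 19044 in G181R ileum and 23789 in wild-type ileum, and 11751 in G181R jejunum and 11545 in wild-type jejunum, differences of -0.24 and -0.01. Abcc4, which exports cyclic nucleotides and bile acids, had 90.5 in G181R ileum and 60.8 in wild-type ileum, and 31.1 in G181R jejunum and 30.9 in wild-type jejunum. Its ileum difference of 0.65 was the highest of subfamily C. Abcc3 had 1778 in G181R ileum and 1781 in wild-type ileum, and 2861 in G181R jejunum and 3025 in wild-type jejunum. Abcc1, Abcc3 and Abcc10, basolateral or broadly expressed relatives, lay between -0.12 and 0.08 in ileum and between -0.21 and -0.11 in jejunum.

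**Figure D2:**
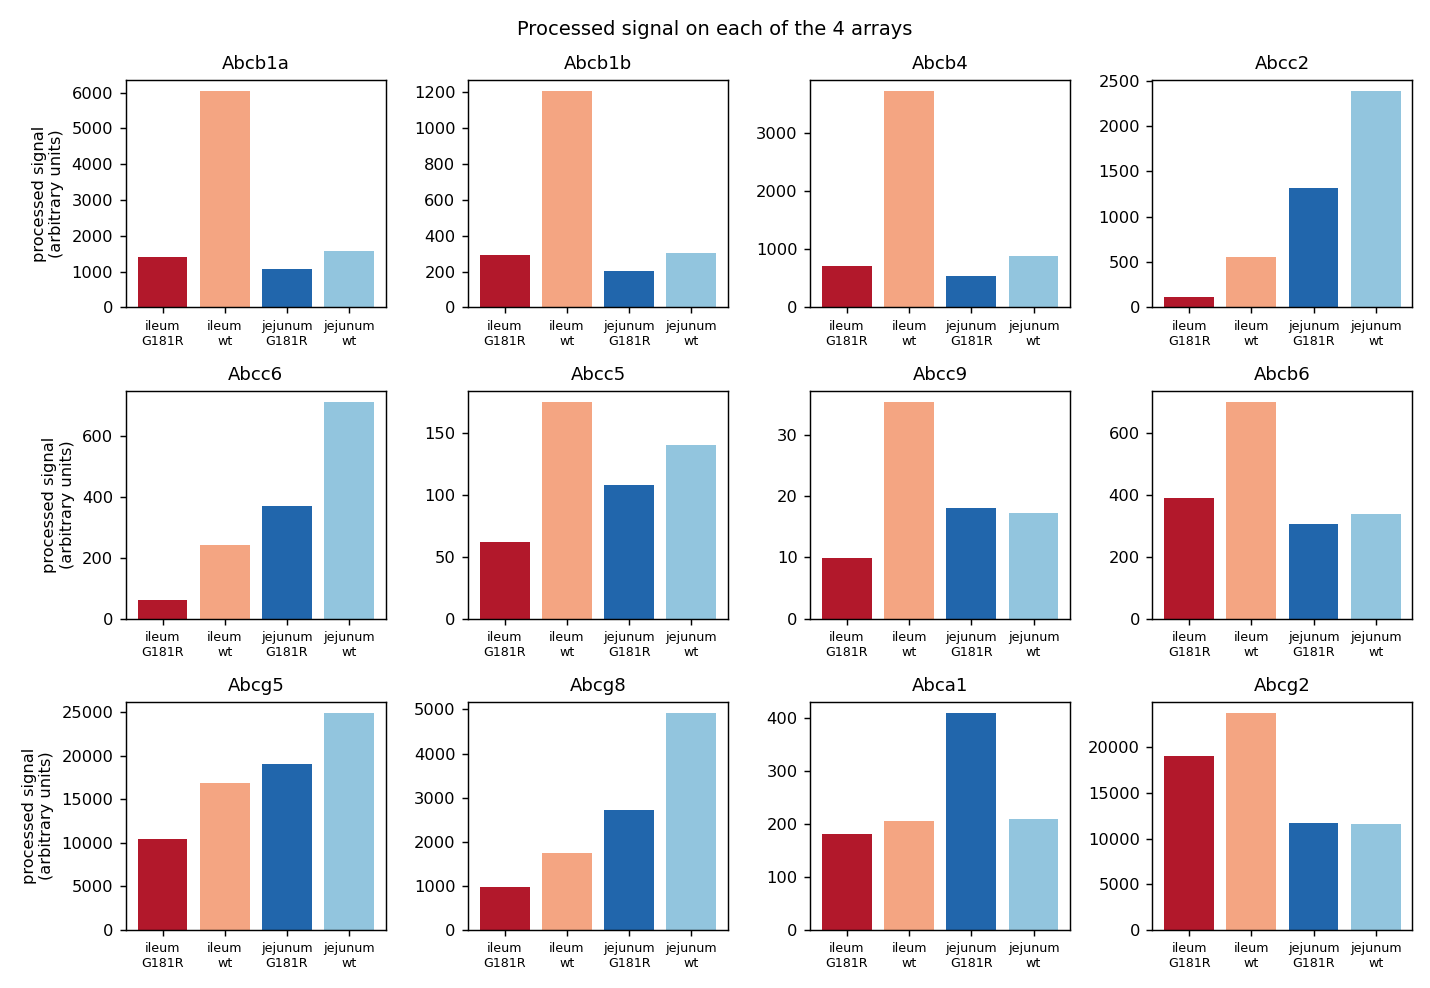
Each panel is 1 gene and each bar the processed signal of its brightest probe on 1 array (arbitrary units, axis from 0), in the order G181R ileum, wild-type ileum, G181R jejunum, wild-type jejunum. There is 1 array per group, so there are no error bars, and heights compare arrays within a panel and not genes. For Abcb1a, Abcb1b and Abcb4 the wild-type ileum bar is the tallest, at 6057, 1208 and 3723, while for Abcc2, Abcc6, Abcg5 and Abcg8 both jejunum bars are taller than both ileum bars.

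Enzymes of drug metabolism that share the receptors PXR and CAR with several efflux genes were examined as a companion list. Of 17 measured enzymes, 9 were at least 2-fold lower in G181R ileum and 0 higher, with a median of -1.16. In jejunum 2 of 18 were at least 2-fold lower, with a median of -0.52. Cyp2c55, a cytochrome P450 of the gut, had 76.3 in G181R ileum and 1790.3 in wild-type ileum (log2 -4.48), and 709.7 in G181R jejunum and 1997 in wild-type jejunum (-1.53). Cyp3a25 had 190.1 in G181R ileum and 1904 in wild-type ileum (-3.25), and its jejunum difference was -0.73. Cyp2c66 and Cyp2c65 were at -1.63 and -1.55 in ileum. The carboxylesterase Ces1g was at -1.03 in jejunum.

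The genes of PXR and CAR themselves were not lower by 2-fold, and the part of these receptors in the lower genes was not tested. Nr1i2, which encodes PXR, differed by 0.04 in ileum and -0.01 in jejunum, and Nr1i3, which encodes CAR, by -0.12 and 0.05. Of 18 measured receptors and factors known to control ABC genes, 3 were at least 2-fold lower in G181R ileum and 0 higher. These were the D-box factor Tef (-1.52), the clock repressor Nr1d1 (-1.19) and the fatty acid receptor Ppara (-1.13). In jejunum 1 of 19, the D-box factor Hlf, was lower by that much (-1.13). The vitamin D receptor Vdr was at -0.68 in ileum and -0.54 in jejunum.

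Among 8 genes of sterol and phospholipid export, 1 was at least 2-fold lower in G181R ileum and 0 higher, with a median of -0.21, and 0 passed 2-fold in jejunum, where the median was -0.15. The lower gene was Abcb4, a floppase that moves phosphatidylcholine into bile in the liver. It had signals of 714.6 in G181R ileum and 3723 in wild-type ileum, and 548.3 in G181R jejunum and 886.5 in wild-type jejunum, with wild-type ileum alone standing apart. This was 4.94-fold lower in G181R ileum (log2 -2.30) and -0.73 in jejunum, the lowest values of subfamily B in both tissues. The other 2 Abcb4 probes were above background on no array, and the mean of all 3 probes gave -0.89 in ileum.

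The chromosome 5 genes were then set beside their neighbours, which were picked after their values were seen. None of the 6 measured protein-coding neighbours was 2-fold different between genotypes. Rundc3b, next to Abcb1a, differed by -0.77 in ileum and -0.25 in jejunum, and Slc25a40 and Dbf4 beyond it by 0.14 and 0.12 in ileum. On the Abcb4 side, Crot, a peroxisomal carnitine acyltransferase, differed by -0.36 in ileum, Tmem243 by -0.67 and Dmtf1 by 0.19.

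Abcg5 and Abcg8, the pair that forms the sterol exporter, were below 0 in both tissues without reaching 2-fold. Abcg5 had 10472 in G181R ileum and 16918 in wild-type ileum, and 19077 in G181R jejunum and 24934 in wild-type jejunum, differences of -0.61 and -0.42. Abcg8 had 977.6 in G181R ileum and 1742 in wild-type ileum, and 2725 in G181R jejunum and 4923 in wild-type jejunum, differences of -0.76 and -0.89. In both genes the arrays stood in the same order, with G181R ileum lowest and wild-type jejunum highest.

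Abca1, which loads cholesterol and phospholipid onto apolipoprotein A-I, stood the other way in jejunum. Its signals were 181.5 in G181R ileum and 204.7 in wild-type ileum, and 409.3 in G181R jejunum and 208.8 in wild-type jejunum. G181R jejunum was the 1 array that stood apart, 1.92-fold above wild-type jejunum (log2 0.94), which was the highest ABC difference among genes measured on both jejunum arrays and inside 2-fold, while in ileum the difference was -0.10. A second, dim Abca1 probe was detected on the G181R jejunum array alone, at a signal of 14.1. Abca3, Abca7, Abcg1 and Abcg4 move phospholipid or cholesterol in other tissues. At their brightest probes they lay between -0.32 and 0.15 in ileum and between -0.24 and 0.06 in jejunum. Abcg4, by that probe the highest of subfamily G in ileum, had 269.4 in G181R ileum and 255.7 in wild-type ileum, and 261.5 in G181R jejunum and 301.6 in wild-type jejunum. A second measured probe of Abca3, Abca7 and Abcg4 gave -0.54, -0.11 and -0.52 in ileum and 0.41, 0.62 and -0.41 in jejunum.

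The companion list of LXR targets and sterol absorption genes had 1 of 17 genes at least 2-fold lower in G181R ileum and 0 in jejunum, with medians of -0.10 and -0.14. The lower one was Scd1, a fatty acid desaturase, at -1.16. The next lowest in ileum was Apoa1, the acceptor for Abca1, at -0.98, with signals of 7103 in G181R ileum and 14786 in wild-type ileum.

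Abcb11, the bile salt export pump of hepatocytes, was the 1 ABC gene counted as higher in G181R ileum, and its signal was dim throughout. It had 18.1 in G181R ileum and 9.02 in wild-type ileum, and 11.2 in G181R jejunum and 10.5 in wild-type jejunum. The 2.12-fold difference in ileum (log2 1.08) compares with a spot SD of 0.497 at such signals, and it was 0.26 with normexp. Of 8 measured genes of bile acid transport and FXR signalling, 0 were 2-fold different in either tissue. The lowest in ileum was Fgf15, the ileal hormone that restrains bile acid synthesis, with 199.8 in G181R ileum and 320.2 in wild-type ileum (-0.60).

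The mitochondrial genes Abcb6, Abcb8 and Abcb10 were within 2-fold in both tissues. Abcb6, a porphyrin transporter, was the lowest of them, with 389.9 in G181R ileum and 700.0 in wild-type ileum, and 306.2 in G181R jejunum and 338.5 in wild-type jejunum, differences of -0.77 and -0.18. Abcb10, which acts in haem synthesis, had 1261 in G181R ileum and 1524 in wild-type ileum, and 1944 in G181R jejunum and 1426 in wild-type jejunum, differences of -0.20 and 0.41. In jejunum that was the highest value of subfamily B. Abcb8 was at 0.29 in ileum and 0.01 in jejunum.

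Abcb9 is a lysosomal peptide transporter and a relative of the antigen peptide transporters Tap1 and Tap2. It differed by -0.44 in ileum and -0.23 in jejunum. Among 9 genes of peptide loading and ABC fold under other symbols, Tap1 alone was at least 2-fold higher in G181R ileum, with 1589.8 in G181R ileum and 732.0 in wild-type ileum (1.20), and in jejunum it was at -0.14. Psmb9, an immunoproteasome subunit, was at 0.87 in ileum, Tap2 at 0.15, and Cftr, the chloride channel of the family, at -0.58.

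Subfamily D, which carries fatty acyl chains into peroxisomes or cobalamin out of lysosomes, was within 2-fold. Abcd3, which carries branched and long chain acyl groups, had 9295 in G181R ileum and 15294 in wild-type ileum, and 14854 in G181R jejunum and 17238 in wild-type jejunum, differences of -0.64 and -0.25. Abcd4, the lysosomal cobalamin exporter, was at -0.24 in ileum and -0.03 in jejunum. Of 11 peroxisome partners, 1 was at least 2-fold lower in G181R ileum, Ehhadh of the beta-oxidation pathway (-1.01), and 0 in jejunum, with medians of -0.28 and -0.12.

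The genes without a transmembrane domain were above 0 in both tissues. Abce1, which splits ribosomes for recycling, had 1021 in G181R ileum and 788.0 in wild-type ileum, and 603.8 in G181R jejunum and 394.7 in wild-type jejunum, differences of 0.45 and 0.58. Both of its probes were above 0 in both tissues, from 0.31 to 0.60. Abcf2 had 168.3 in G181R ileum and 124.5 in wild-type ileum (0.51), and 109.9 in G181R jejunum and 88.7 in wild-type jejunum (0.28). Abcf1 had 2336 in G181R ileum and 2358 in wild-type ileum (0.06), and 1995.0 in G181R jejunum and 1595 in wild-type jejunum (0.29). Abcf3 had 718.8 in G181R ileum and 709.0 in wild-type ileum (0.10), and 752.4 in G181R jejunum and 663.6 in wild-type jejunum (0.15). None of the 4 passed 2-fold. The probes of Abcf1 did not all have the same sign in either tissue, nor did those of Abcf3 in ileum, where they ran from -0.11 to 0.10.

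The translation partners of these genes ran the same way, with all 9 above 0 in both tissues and 0 past 2-fold. Their medians were 0.36 in ileum and 0.27 in jejunum. Examples are the release factors Etf1 (0.46 and 0.32) and Gspt1 (0.40 and 0.17) and Gcn1l1, a partner of the kinase that senses amino acid lack (0.40 and 0.47).

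The potassium channel subunits of subfamily C parted from each other. Abcc9, the SUR2 subunit found in vascular and other smooth muscle, had 9.82 in G181R ileum and 35.3 in wild-type ileum, and 18.1 in G181R jejunum and 17.3 in wild-type jejunum. It was 3.41-fold lower in G181R ileum (log2 -1.77), was at 0.03 in jejunum, and stood at -0.40 in ileum with normexp. Kcnj8, which encodes the pore that SUR2 pairs with, had 64.1 in G181R ileum and 253.9 in wild-type ileum (-1.91), and 91.1 in G181R jejunum and 45.7 in wild-type jejunum (0.96). Abcc8, the SUR1 subunit of endocrine cells, was at -0.29 in ileum and -0.12 in jejunum, and its partner Kcnj11 was not above background on any array.

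Markers of smooth muscle moved with these ileum differences. Of 11 measured markers, 9 were at least 2-fold lower in G181R ileum and 0 higher, with a median of -2.51. In jejunum 0 were 2-fold different and the median was 0.17. The summed signal of the list, in multiples of each array's 75th percentile, was 44.1 in G181R ileum and 105.8 in wild-type ileum, and 56.9 in G181R jejunum and 51.9 in wild-type jejunum. All markers but Lmod1 were above background on every array, and Lmod1 was so in wild-type ileum alone. Endothelial and pericyte markers had 1 of 9 measured at least 2-fold lower in G181R ileum, with 8 below 0 and a median of -0.26. In jejunum 0 of 10 were 2-fold different, with a median of -0.16. The 1 lower in ileum was the pericyte marker Rgs5, at -2.46 in ileum and 0.13 in jejunum. Pdgfrb and Cspg4 of the same list were at -0.55 and -0.70 in ileum. The part of these cells in the values of Abcc9 and of the other lower ABC genes was not tested.

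Markers of other cell types were set beside the ABC genes in the same way. Enterocyte markers had 0 of 10 at 2-fold or more in either genotype comparison, with medians of -0.14 in ileum and -0.17 in jejunum, and summed signals of 1400.2 in G181R ileum and 1573 in wild-type ileum, and 3515 in G181R jejunum and 3957 in wild-type jejunum. Adipocyte markers had 5 of 7 at least 2-fold lower in G181R ileum, with a median of -1.05 (summed signal 27.0 in G181R ileum and 55.5 in wild-type ileum). Plin1 and Lep were above 0 there, at 0.26 and 0.25. Cidec, 1 of the 5, had 1959 in G181R ileum and 4241 in wild-type ileum, and 10597 in G181R jejunum and 11474 in wild-type jejunum. In jejunum 1 of 6 measured adipocyte markers was at least 2-fold lower, with a median of -0.46. In G181R ileum, fibroblast markers had 1 of 8 at least 2-fold lower, with all 8 below 0 and a median of -0.65 (summed signal 11.7, against 17.8 in wild-type). Nerve and glia markers had 2 of 6 measured at least 2-fold lower there, with 5 below 0 and a median of -0.52. Tuft cell markers had 2 of 3 measured at least 2-fold lower there and all 3 below 0 (median -1.37), with Il25 and Gnat3 above background on no array. Macrophage and dendritic markers were at a median of 0.27 with 0 of 10 past 2-fold. Neutrophil markers had 1 of 3 measured at least 2-fold higher in G181R ileum and 2 below 0, with a median of -0.03. The higher one was Ly6g, with 183.2 in G181R ileum and 53.4 in wild-type ileum (1.86), and Mpo was lowest, at -0.06. S100a8 and S100a9 were detected in G181R ileum alone, with lower bounds of 1.84 and 3.83 on the log2 scale. B and plasma cell markers had a median of 0.68 in ileum, with 0 of 7 past 2-fold. In jejunum their median was -0.72, and 2 of 6 were at least 2-fold lower in G181R mice, Ms4a1 (-1.98) and Cr2 (-1.46). The part of these cell types in the ABC values was not tested either.

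**Figure D3:**
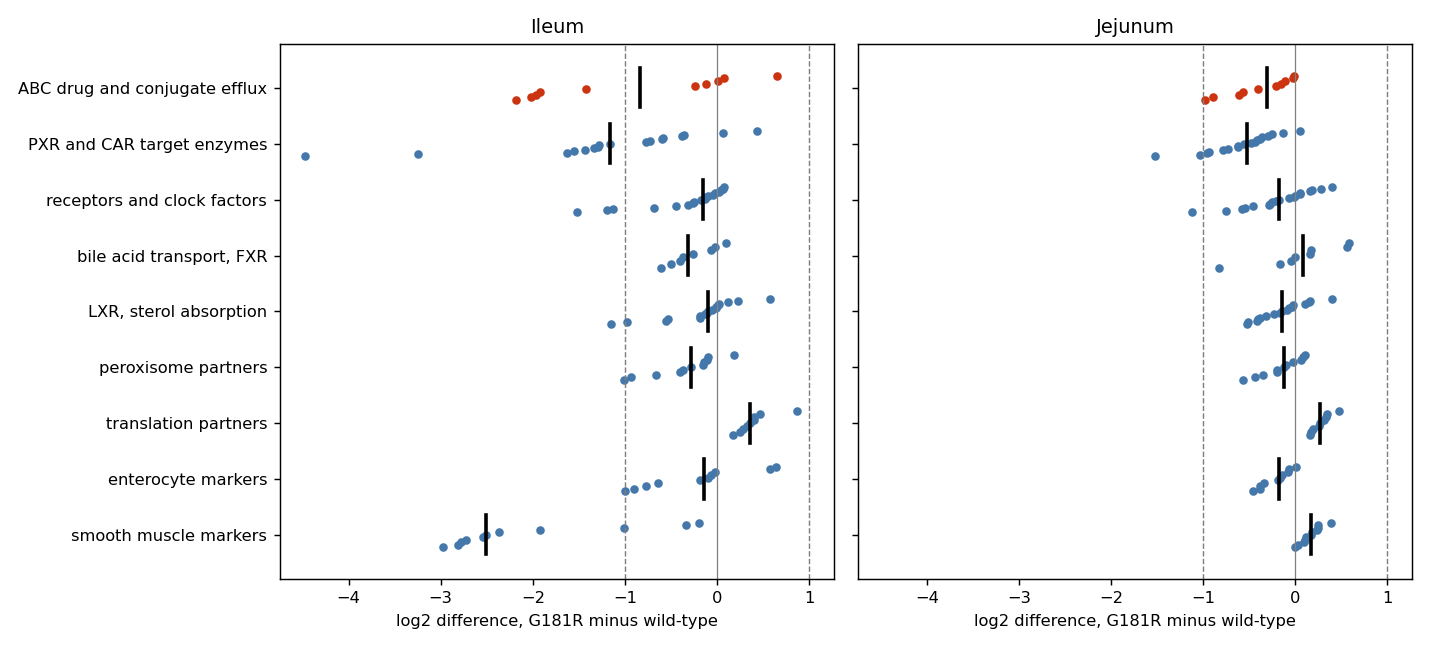
Each point is 1 gene of the list named at the left, placed by its log2 difference (G181R minus wild-type) in ileum in the left panel and jejunum in the right, on the same horizontal scale. Black bars are list medians, dashed lines mark 2-fold, and red points are the ABC genes of drug and conjugate efflux. Of the 9 lists drawn, the efflux genes (-0.83), the PXR and CAR target enzymes (-1.16) and the smooth muscle markers (-2.51) have the medians furthest to the left in ileum, and in jejunum the smooth muscle median is 0.17. Not every list is drawn. Tuft and adipocyte markers had ileum medians of -1.37 and -1.05, and the other marker lists not drawn lay above -0.83.

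The remaining members of subfamily A were dim or detected on few arrays. Abca8b, one of a cluster of related genes on chromosome 11 whose roles are less well known, had 23.6 in wild-type ileum and was not well above background in G181R ileum (4.48), G181R jejunum (1.89) or wild-type jejunum (2.27). All 3 of its probes were detected in wild-type ileum alone. Its neighbour Abca8a was detected on every array but G181R ileum, where it was at least 1.56-fold lower. Abca9 was detected in wild-type jejunum alone (17.7) and was not well above background in G181R ileum (2.70), wild-type ileum (6.74) or G181R jejunum (6.35), so that G181R jejunum was at least 2.85-fold lower, beside lower bounds of at least 2-fold for 9.08% of the 1873 genes detected on 1 jejunum array only.

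Abca16, a relative known from rodent testis, was detected in G181R jejunum alone, with a signal of 26.2, against 1.48 in G181R ileum, 1.74 in wild-type ileum and 1.82 in wild-type jejunum. Its other 2 probes were detected on no array. It was at least 3.48-fold higher in G181R jejunum, and higher bounds of at least 2-fold were found for 5.23% of the same 1873 genes. Abca17 had 47.5 in G181R ileum and 71.1 in wild-type ileum, and 24.4 in G181R jejunum and 43.2 in wild-type jejunum, differences of -0.50 and -0.86 that were the lowest among genes of the subfamily measured on both arrays. Abca4, the retinoid transporter of photoreceptors, was at 0.34 in ileum, the highest among those measured on both ileum arrays, with signals of 10.9 in G181R ileum and 9.05 in wild-type ileum, and was not well above background in G181R jejunum (3.56) or wild-type jejunum (6.14). A second Abca4 probe was detected in wild-type ileum and G181R jejunum and on no other array, so its probes did not show the same arrays. Abcg3, a rodent gene of subfamily G, had 10.6 in G181R ileum and 20.5 in wild-type ileum, and 30.4 in G181R jejunum and 59.0 in wild-type jejunum, differences of -0.88 and -0.99 that were the lowest of its subfamily in both tissues.

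Taking both tissues, 36 ABC genes were measured in both genotype comparisons. Of these 20 were below 0 in both, 8 above 0 in both and 8 of opposite sign, shares of 55.6% and 22.2% for the first 2 sets. Over all 20418 genes measured in both, 32.8% were below 0 in both and 35.6% above 0 in both. No ABC gene was 2-fold different the same way in both tissues, which 127 of all genes were. The genotype difference in ileum minus that in jejunum was most negative for Abcc9 (-1.80), Abcb4 (-1.58) and Abcb1a (-1.45), and it was 1.03 for Abcb11. These are differences between single arrays, with no test.

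The other comparison sets ileum against jejunum within each genotype, using the same 4 arrays, so it is not independent of the genotype values. In G181R mice, 1 of 37 measured ABC genes was at least 2-fold higher in ileum and 8 were at least 2-fold lower, beside 7.29% and 8.73% of all 21474 measured genes. In wild-type mice, 4 of 37 were higher and 8 lower, beside 7.4% and 9.12% of 20751 genes. The median ABC difference was -0.20 in G181R mice and -0.15 in wild-type mice, beside -0.03 and -0.05 for all genes. Abca16 was at least 4.71-fold lower in ileum of G181R mice, a lower bound of at least 2-fold shared by 18.1% of 2248 genes, with higher bounds for 13.8% of them and for 0 ABC genes. In wild-type mice Abca8b was at least 2.71-fold higher in ileum and Abca9 at least 2.91-fold lower, beside 16.1% and 18.1% of 2335 genes.

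Among all 20418 genes measured in both genotypes, 2326 passed 2-fold the same way in both. Of the 36 ABC genes so measured, 6 did, all of them lower in ileum. They were Abcc2 (12.4-fold in G181R mice and 5.08-fold in wild-type mice), Abcc6 (6.66-fold and 3.47-fold), Abca2 (4.88-fold and 6.57-fold), Abcb9 (4.63-fold and 4.02-fold), Abcg3 (3.15-fold and 3.41-fold) and Abcg8 (3.06-fold and 3.35-fold). Abca2, an endolysosomal lipid transporter, had 14.3 in G181R ileum and 63.5 in G181R jejunum, and 17.8 in wild-type ileum and 98.7 in wild-type jejunum. Its genotype differences were -0.24 in ileum and -0.67 in jejunum. Abcb9 had 627.3 in G181R ileum and 2647 in G181R jejunum, and 895.6 in wild-type ileum and 3040 in wild-type jejunum. Jejunum was the higher tissue in both genotypes for each of these genes. Abcg5 stood at -0.998 in G181R mice, a fold just under 2, and at -0.80 in wild-type mice.

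Abcb1a, Abcb1b and Abcb4 were higher in ileum by 2-fold in wild-type mice and not in G181R mice. In G181R mice ileum and jejunum differed by 0.26, 0.40 and 0.25, against 1.71, 1.75 and 1.83 in wild-type mice, for the 3 genes in that order. Abcc8 was the fourth gene higher in ileum of wild-type mice, at 1.01 against 0.84 in G181R mice, with 112.6 in G181R ileum, 145.3 in wild-type ileum, 57.4 in G181R jejunum and 61.0 in wild-type jejunum. It was 0.60 with normexp and -0.20 in the mean of its probes, one of which was above background on no array.

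Abcc4 was the 1 gene at least 2-fold higher in ileum of G181R mice (2.66-fold, against 1.66-fold in wild-type mice). With normexp its value in G181R mice was 0.65. Genes at least 2-fold lower in ileum in 1 genotype included Abca1 and Abcc9 in G181R mice (-1.31 and -1.01, against -0.27 and 0.79 in wild-type mice) and Abcc3 in wild-type mice (-1.01, against -0.82 in G181R mice). With normexp Abcc9 and Abcc3 fell under 2-fold, at -0.26 and -0.91, as did Abca2 in G181R mice, at -0.80, and Abcg3 in both, at -0.49 in G181R mice and -0.84 in wild-type mice. Abcc9 and Abcc3 were also under 2-fold with each of the 3 other scalings tried, at -0.99 to -0.95 and at -0.98 to -0.85.

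**Figure D4:**
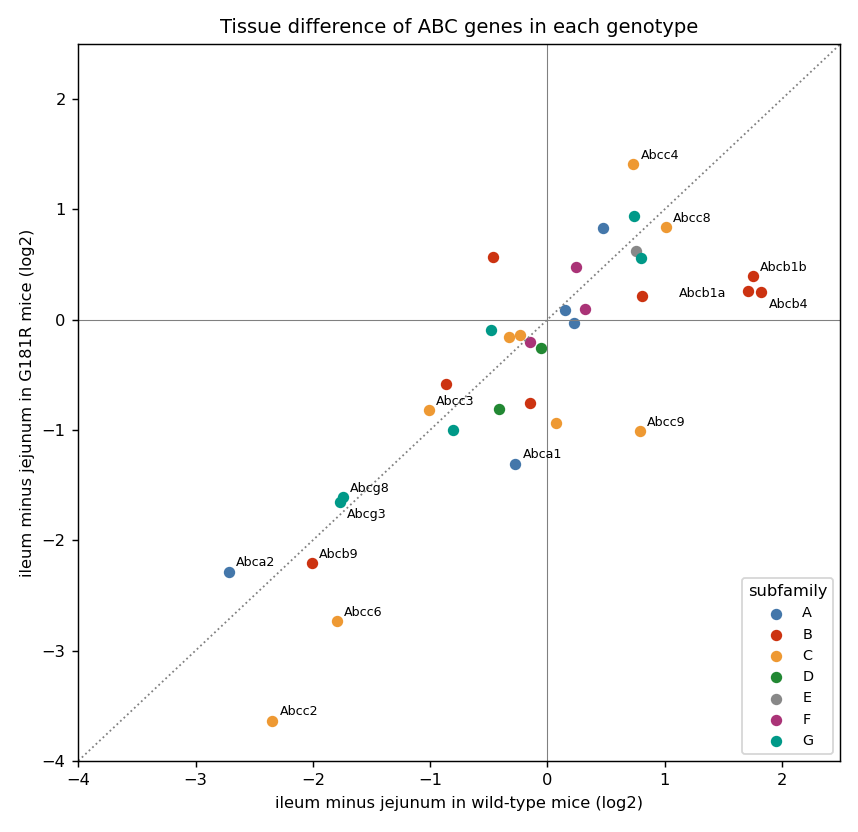
Each point is 1 ABC gene reported here, with its ileum minus jejunum log2 difference in G181R mice on the vertical axis and in wild-type mice on the horizontal axis, coloured by subfamily, and the dotted diagonal marks equal differences. Both axes use the same 4 arrays as the genotype comparisons. Abcb1a, Abcb1b and Abcb4 lie to the right of the diagonal, near 1.8 on the wild-type axis and between 0.25 and 0.40 on the G181R axis, and Abcc2 is the lowest point, at -3.64 in G181R mice and -2.34 in wild-type mice.

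By subfamily, the tissue medians were -0.22 for A, 0.22 for B, -0.82 for C, 0.63 for E, 0.09 for F and -0.54 for G in G181R mice. In wild-type mice they were -0.06 for A, -0.15 for B, -0.23 for C, 0.75 for E, 0.25 for F and -0.64 for G. Subfamily B had both signs, with Abcb9 lowest. Enterocyte markers were lower in ileum too, with 6 of 10 at least 2-fold lower in G181R mice and 5 of 10 in wild-type mice. Single markers differed widely, from -8.73 (Lct) to -0.26 (Anpep) in G181R mice and from -9.83 to -0.23 for the same genes in wild-type mice. Smooth muscle markers stood in opposite directions in the 2 genotypes. In G181R mice 6 of 11 were at least 2-fold lower in ileum (median -1.02), while in wild-type mice 8 of 11 were at least 2-fold higher (median 1.47). Abcc9 had these signs as well, and Abcb1a, Abcb1b and Abcb4 were 2-fold higher in ileum in wild-type mice alone. The part of both cell types in these tissue differences was not tested.

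Agreement between probes of the same gene limits single values. Of the 50 genes, 15 had 1 probe and 35 had several, up to 6. In ileum 12 genes had several probes measured on both arrays, and for 8 of them all such probes had the same sign of genotype difference, with a median range of 0.22. In jejunum it was 9 of 12, with a median range of 0.0637. For the tissue difference it was 8 of 12 in each genotype, with median ranges of 0.54 in G181R mice and 0.27 in wild-type mice. Abcc1 shows the spread, since its brightest probe put ileum at -0.16 in G181R mice and -0.33 in wild-type mice while its other probe put it at 1.497 and 1.20. Of the 7 genes at least 2-fold lower in G181R ileum, Abcc5 and Abcc6 were the ones read by more than 1 measured probe.

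**Figure D5:**
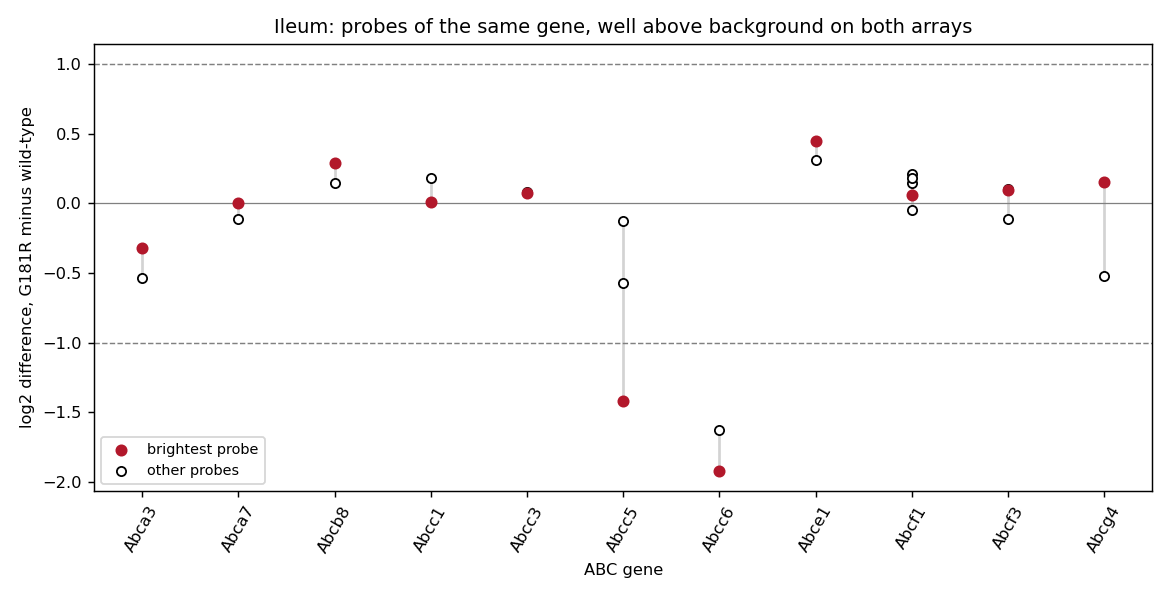
Of the 12 ABC genes with several probes well above background on both ileum arrays, 11 are along the horizontal axis, with the log2 difference (G181R minus wild-type, ileum) of each probe on the vertical axis. Filled points are the brightest probe of a gene, open points its other probes, and dashed lines mark 2-fold. The probes of Abcc6 lie together at -1.92 and -1.63, and those of Abcc5 spread from -1.42 to -0.12.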

How the data were processed

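RNA of 5 mice per group was labelled with Cy3 from 100 ng and hybridised, 1 array per group. The deposited scanner files hold intensity values, the processed signal that Agilent Feature Extraction 11.5.1.1 (per the submitters' processing notes) made after background subtraction, per the file headers, with no scaling between arrays. Other deposited columns are flags of 0 or 1, per the file headers, for background, saturation and outliers. The 4 sample columns of the deposited value table were not used, since many probes hold fill values there.

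The log2 signal was averaged over a probe's spots without outlier flags, less that array's 75th percentile among probes other than controls. A gene name of the array design was read at its brightest probe, by the mean of all 4 arrays. Of the ABC genes, 46 had an accession in the RefSeq gene table and 0 of these a different symbol. Genes count as measured if the probe is well above background on each array compared, and as different from 2-fold. Where only 1 array was well above background, the fold is a bound against the higher of the dim probe's own signal and the lowest signal well above background on its array. Both signals were scaled first. Probe coordinates are mm9, per the file headers, and exon or UTR positions were not used here.

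The counting was tested on simulated data. Alternatives were normexp with an offset of 50 (limma 3.58.1, R 4.3.3), the array median, the 75th percentile of probes well above background on all arrays, quantile normalization, the mean of all probes, no background filter, outlier spots kept, a 1.5-fold threshold and symbols updated through RefSeq. Tables were made with Python 3.11.15 and pandas 2.3.3. The members, the role groups, the companion and marker lists and the naming rule were chosen with earlier results of these data known. The rule gives signals on all arrays for genes counted or bounded at 2-fold and for the highest and lowest gene of each subfamily in each genotype comparison. A pair of ABC genes enters the counts and medians and is not reported here by gene. Of each companion list it gives the members with the largest differences. PXR, CAR and the other receptors were added after their values were seen, as were Vdr, Tap2, Cftr and Apoa1.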

Additional observations from a re-analysis of the deposited data

How the results depend on the processing

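Of 72 counts of ABC genes recomputed under 9 alternatives, 54 stayed within 1.5 times the reported count. With the median, the other percentile and quantile scalings, and with outlier spots kept or symbols updated, the ileum genotype counts were 1 higher and 7 lower as reported, and the median of all genes moved by at most 0.0638. With normexp the counts were 0 higher and 5 lower in the ileum genotype comparison, 0 higher and 5 lower between tissues in G181R mice, and 5 lower between tissues in wild-type mice. Normexp moved dim genes most, with Abcb11 at 0.26, Abcc9 at -0.40 and Abcc5 at -0.94 in the ileum genotype comparison and Abcc4 at 0.65 between tissues in G181R mice. In the mean of all probes, 1 gene was higher and 1 lower in the jejunum genotype comparison, and 1 was higher between tissues in wild-type mice, where Abcc8 turned to -0.20. That mean takes in probes at background. Abcb4 was then at -0.89 and Abcc9 at -0.97 in the ileum genotype comparison, and between tissues in wild-type mice Abcb4 was at 0.20 and Abcb1b at 0.03. With no background filter, 2 were higher in ileum and 2 higher and 2 lower in jejunum by genotype, and 5 were higher between tissues in G181R mice. At 1.5-fold, 3 were higher and 12 lower in ileum and 1 higher and 8 lower in jejunum by genotype. At that threshold 5 were higher and 15 lower between tissues in G181R mice and 10 were higher in wild-type mice. Without the filter the median of all genes moved by -0.14 in the ileum genotype comparison and by -0.22 between tissues in wild-type mice.

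Of 203 recomputed differences of genes counted at 2-fold, 23 fell under 2-fold and 1 of these reversed. Beyond the normexp offset and the probes at background that enter the mean of all probes, the cause was not tested. No paired analysis was possible because each group has 1 array. Signal near background limits Abcb11, Abcc9, Abcg3 and most of subfamily A, and Nr1d1 and Hlf among the receptors and factors.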
